A study of Homo sapiens with 6 samples.

Results

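The genes of glycolysis and of the response to low oxygen were followed in HEK-293T, a transformed cell line from human embryonic kidney, after exposure to nitidine chloride, a plant alkaloid. A fixed list of 36 symbols was matched to the gene names of the deposited expression table, which holds 50868 genes. All 36 had 1 row each, and 35 averaged 10 counts or more per library and entered the test. The cells were wild-type and received either the solvent DMSO or 10 µM nitidine chloride in their medium, both for 12 h. Each group had 3 libraries, and the labels state no change of oxygen for either. Nothing in the labels says whether the 3 libraries of a group came from separate cultures, so p-values measure the spread between these libraries only.

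Glycolysis turns glucose into pyruvate in the cytosol, and many of its steps can be carried by several isozymes encoded by separate genes. Pyruvate is then reduced to lactate by lactate dehydrogenase or enters mitochondria. There it is used by pyruvate dehydrogenase, which the PDK kinases switch off. When oxygen is present, the prolyl hydroxylases EGLN1, EGLN2 and EGLN3 mark the HIF alpha subunits HIF1A and EPAS1, and the VHL ubiquitin ligase then removes them. When oxygen is scarce, the HIF proteins persist, bind a short DNA element with the core ACGTG or GCGTG, and raise many glycolytic genes together with VEGFA, CA9, ADM and other outputs. These steps act largely on protein stability, which was not measured here.

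Library totals ran from 12688093 to 16357992 counts, and the members together took between 1.23% and 1.41% of them. All 8 markers set for the line, among them KRT8, KRT18, VIM and the neurofilament genes NEFL and NEFM, were counted above the minimum. Markers of endothelium, leukocytes, fibroblasts and erythroid cells summed to at most 5.97 CPM per list in any library (CPM, counts scaled to the library size with TMM factors). The endothelial sum was 1.42 to 2.09 CPM in DMSO and 4.54 to 5.62 CPM after nitidine chloride, nearly all of it from KDR, and its part in the results was not tested. In RNA from bulk cultures, fewer cells that express a gene and less of its RNA per cell cannot be told apart.

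Of the 35 members tested, 14 fell, 6 rose and 15 did not pass the test (edgeR's quasi-likelihood test, Benjamini-Hochberg adjusted p under 0.05 over all 15953 genes tested). The falling members made up 40% of those tested, beside 27% of all genes called lower, and the rising members 17.1%, beside 24.7% of all genes called higher. Either call was made for 51.7% of all genes. In 22 members (62.9%) the CPM of the groups did not overlap, as in 60.7% of all genes. Of 21 members not overlapped by another counted gene, 2 rose (9.52%) and 11 fell (52.4%). Their median genomic span, introns included, was 53.3 kb, beside 42.7 kb for all tested members. Shares among all genes not overlapped were not computed, so these counts have no background of their own. The overlap is on the other strand for HK2, PFKM, PFKFB2, TPI1, GAPDH, PDK2, CA9, ANKRD37 and P4HA2, and on the same strand for HIF1A, EGLN2, EGLN3, GPI, ALDOC and ENO2, so the counts of these members are uncertain. The lowest values belonged to PDK1 and NDRG1, and the highest to VEGFA, ALDOC and VHL. The median log2 fold change of the members was -0.15, against 0.01 for all genes tested. Scaling by library size alone moved the median of all genes to 0.12, with 57.9% of the changed genes higher in place of 47.7%. That scaling gave 7 members higher and 11 lower, beside 5140 and 3730 of all 15953 genes. Directions are therefore relative to the TMM scale. Only PDK1, NDRG1 and VEGFA passed a test against a 1.5-fold change, which called 4.7% of all genes higher and 13.1% lower.

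**Figure D1:**
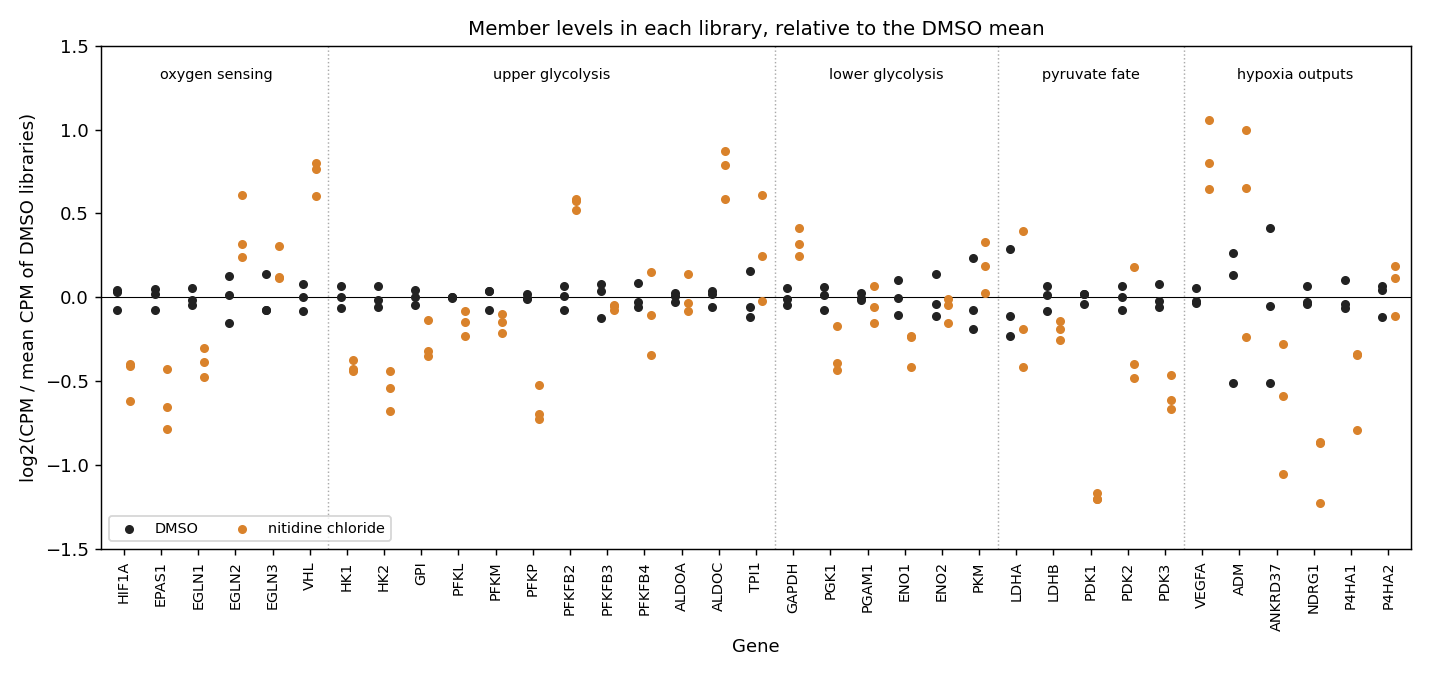
Level of each of the 35 tested members in every library, as log2 of its CPM over the mean CPM of the 3 DMSO libraries (black, DMSO; orange, nitidine chloride), ordered by role. PDK1 sits far below its DMSO libraries in all 3 nitidine chloride libraries with little spread, VEGFA and ALDOC sit above their DMSO libraries, and LDHA and ADM scatter within both groups.

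Both HIF alpha subunits fell at the RNA level. HIF1A (ENSG00000100644), the widely expressed subunit, lies on chromosome 14 from 61695513 to 61748259 and was counted at 169.7, 169 and 156 CPM in the DMSO libraries and at 124, 107 and 125 CPM after nitidine chloride. The groups did not overlap, and the log2 fold change was -0.47 ± 0.08 (SE), with an edgeR adjusted p of 0.00157. EPAS1, which encodes HIF-2 alpha (chromosome 2, 46293667 to 46386703), was at 47.4, 43.5 and 46.4 CPM and then at 26.5, 34.0 and 29.1 CPM, a log2 fold change of -0.61 ± 0.11 (adjusted p = 0.00200). All 3 treated libraries were below all 3 controls, with treated replicate 2 nearest to them. HIF1A made up 80.9 ± 1.08% of the FPKM of the pair in DMSO and 82.3 ± 3.11% after treatment, and these shares overlapped, so a change in the balance of the subunits was not detectable.

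The enzymes that mark HIF for destruction went different ways. EGLN1, the main HIF prolyl hydroxylase (chromosome 1, 231363751 to 231425044), was at 158, 147 and 151 CPM in DMSO and at 123, 116 and 109 CPM after nitidine chloride, and fell with -0.39 ± 0.07 (adjusted p = 0.00201). EGLN2 (chromosome 19, 40798996 to 40808433) was at 30.6, 28.3 and 25.3 CPM and then at 33.1, 35.0 and 42.9 CPM, and rose with 0.40 ± 0.12 (adjusted p = 0.0277), with treated replicate 3 highest. The EGLN2 call was lost in 4 of 15 alternative fits. Among them were those without DMSO replicate 2 (adjusted p = 0.0682), DMSO replicate 3 (0.0951) or nitidine chloride replicate 3 (0.0706). The readthrough gene RAB4B-EGLN2 overlaps EGLN2 on the same strand, so the split of reads is uncertain. EGLN3, a hydroxylase that HIF itself induces, was at 16.7, 16.7 and 19.4 CPM and then at 19.0, 19.1 and 21.7 CPM. These values overlap, and EGLN3 did not pass (adjusted p = 0.192).

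VHL showed the clearest rise among the oxygen sensing genes. It encodes the substrate receptor of the ubiquitin ligase that recognises hydroxylated HIF and lies on chromosome 3 from 10141008 to 10152220. Its level was 86.9, 92.0 and 97.2 CPM in DMSO and 139.9, 157 and 160.2 CPM after nitidine chloride, so the lowest treated library stood well above the highest control. The log2 fold change was 0.73 ± 0.08, a 1.65-fold rise, with an edgeR adjusted p of 1.50e-04. In the hydroxylase family, EGLN1 made up 85.6 ± 0.295% of the summed FPKM in DMSO and 78.8 ± 2.75% after treatment, without overlap, and EGLN2 6.60 ± 0.528% and 10.5 ± 1.70%. Such shares depend on the gene length used, and per length of merged exons EGLN1 made up 75.9 ± 0.337% and 65.8 ± 3.93% and EGLN2 15.4 ± 1.15% and 23.1 ± 3.13%. An exact permutation test of 3 against 3 libraries cannot go below p = 0.1, so isozyme shares are given as descriptions throughout.

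Both hexokinases, which phosphorylate glucose in the first step, fell to a similar degree. HK2, the inducible form (chromosome 2, 74833981 to 74893359), was at 185, 180.1 and 196 CPM and then at 128, 138 and 117 CPM, with a log2 fold change of -0.55 ± 0.08 (adjusted p = 6.60e-04). HK1, the constitutive form (chromosome 10, 69269984 to 69401882), was at 158, 165 and 173 CPM and then at 122, 123 and 128 CPM, with -0.41 ± 0.06 (adjusted p = 8.30e-04). For both genes every treated library was below every control. The share of HK2 in their summed FPKM was 61.6 ± 0.869% in DMSO and 59.3 ± 2.49% after nitidine chloride, which overlap. GPI, the isomerase of the next step, was at 416, 442 and 430.3 CPM and 337, 389.8 and 344 CPM and fell with -0.27 ± 0.07 (adjusted p = 0.0155). The GPI call did not hold without DMSO replicate 2 (adjusted p = 0.0574) or with scaling by library size alone (0.0587).

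Of the 3 phosphofructokinase genes, which commit sugar to glycolysis, the platelet form PFKP alone passed. PFKP (chromosome 10, 3066333 to 3137712) was at 118, 116 and 116 CPM in DMSO and at 70.5, 81.3 and 72.2 CPM after treatment, a log2 fold change of -0.65 ± 0.07 (adjusted p = 1.82e-04). The DMSO libraries lay within 3 CPM of each other and the treated libraries were far below them. The liver form PFKL was at 178, 177 and 177 CPM and 151, 160.1 and 168 CPM, with a log2 fold change of -0.15 ± 0.06 (adjusted p = 0.0684). The muscle form PFKM was at 149.6, 162 and 162 CPM and 136, 147 and 142 CPM, with -0.15 ± 0.06 (adjusted p = 0.0743). All treated libraries were below all controls for both genes, without passing the test. PFKP made up 41.3 ± 0.804% of the family's summed FPKM in DMSO and 33.3 ± 1.38% after nitidine chloride, PFKL 27.7 ± 0.334% and 31.5 ± 1.32%, and PFKM 31.1 ± 1.13% and 35.3 ± 0.300%.

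Among the PFKFB genes, whose enzymes make and break down fructose 2,6-bisphosphate, the activator of phosphofructokinase, PFKFB2 rose. PFKFB2 (chromosome 1, 207034366 to 207081024) was at 66.3, 70.4 and 73.2 CPM and then at 105, 104 and 100.2 CPM, a log2 fold change of 0.56 ± 0.06 (adjusted p = 2.18e-04). The treated libraries agreed within 5 CPM, and all were above the controls. YOD1 overlaps PFKFB2 on the other strand, and the strand setting of the counting is not known from the labels, so part of this count may belong to YOD1. PFKFB3, the form most often tied to hypoxia and growth, was at 48.7, 43.4 and 50.01 CPM and 45.6, 45.9 and 44.9 CPM, and PFKFB4 at 24.0, 24.5 and 26.5 CPM and 23.2, 27.7 and 19.7 CPM. Neither passed (adjusted p = 0.568 and 0.616), and both sets of values overlap. PFKFB2 made up 42.7 ± 1.46% of the summed FPKM of these 3 genes in DMSO and 53.6 ± 1.49% after treatment, without overlap. Per length of merged exons these shares were 36.7 ± 1.51% and 47.3 ± 1.19%, and PFKFB3 was the largest of the 3 in DMSO with 41.4 ± 1.93%, so which isozyme led in DMSO depends on the length used.

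The aldolases, which split fructose 1,6-bisphosphate, differed. ALDOC, the form best known from brain (chromosome 17, 28573115 to 28577264), was at 30.2, 31.9 and 32.3 CPM in DMSO and at 54.3, 57.7 and 47.2 CPM after nitidine chloride. All treated libraries were above all controls, and the log2 fold change was 0.75 ± 0.09 (adjusted p = 3.61e-04). ALDOA, the major form, was at 600.2, 586 and 607 CPM and 565, 658 and 583 CPM, a log2 fold change of 0.01 ± 0.07 that did not pass (adjusted p = 0.915). ALDOC made up 14.3 ± 0.507% of the FPKM of the pair in DMSO and 21.9 ± 1.46% after treatment. Per length of merged exons the share of ALDOC was 6.58 ± 0.253% and 10.6 ± 0.808%. TPI1, triosephosphate isomerase, was at 739.9, 708 and 859 CPM and 758, 1175 and 911 CPM and did not pass (adjusted p = 0.140), although it passed without nitidine chloride replicate 1 (0.0308) and with scaling by library size alone (0.0480).

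**Figure D2:**
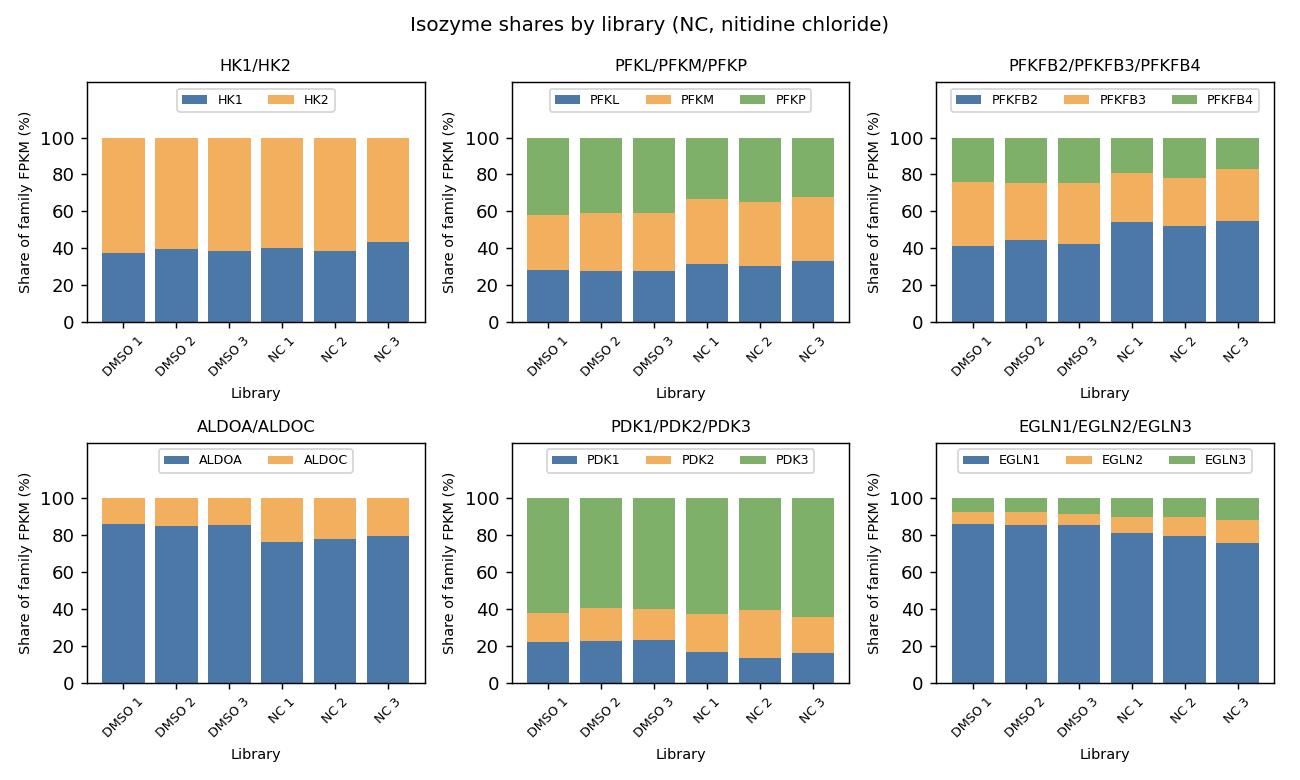
Share of each isozyme in the summed FPKM of its family (percent) in each of the 3 DMSO and 3 nitidine chloride (NC) libraries, for 6 families. PFKFB2 and ALDOC take larger shares in every treated library, PFKP, PDK1 and EGLN1 take smaller ones, and the HK1 and HK2 shares overlap.

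In the lower part of glycolysis, which yields ATP, GAPDH rose while PGK1 and ENO1 fell. GAPDH, the dehydrogenase often used as a reference transcript (chromosome 12, 6533927 to 6538374), was at 2565, 2683 and 2494 CPM in DMSO and at 3066, 3431 and 3222 CPM after treatment, without overlap. Its log2 fold change was 0.33 ± 0.06 (adjusted p = 0.00277). PGK1, phosphoglycerate kinase (chromosome X, 78065188 to 78129296), was at 828, 755 and 802 CPM and then at 606, 704 and 588 CPM, with -0.33 ± 0.08 (adjusted p = 0.0108). ENO1, the main enolase (chromosome 1, 8861002 to 8879249), was at 2928, 2537 and 2719 CPM and then at 2045, 2325 and 2316 CPM, with -0.29 ± 0.08 (adjusted p = 0.0141). Every treated library was below every control for PGK1 and ENO1, but the ENO1 call did not hold without DMSO replicate 1 (adjusted p = 0.0545) or with scaling by library size alone (also 0.0545).

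The remaining members of the lower part did not pass. PGAM1, phosphoglycerate mutase, had a log2 fold change of -0.04 ± 0.07 (adjusted p = 0.626), and ENO2, the enolase first described in neurons, -0.07 ± 0.09 (adjusted p = 0.568), at 40.3 ± 3.67 CPM in DMSO (mean ± SD, n = 3) and 38.5 ± 1.94 CPM after treatment. PKM, pyruvate kinase, was at 624, 674 and 837 CPM in DMSO and 723, 894 and 811 CPM after treatment, with 0.19 ± 0.12 (adjusted p = 0.240), and passed only without DMSO replicate 3 (0.0472 at 0.32). ENO1 made up 99.2 ± 0.0815% of the FPKM of both enolases in DMSO and 99.0 ± 0.0943% after treatment, which overlap.

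Of the lactate dehydrogenase genes, whose enzyme reduces pyruvate to lactate, LDHB fell by a small step and LDHA did not pass. LDHA was at 705, 650.1 and 933 CPM in DMSO and at 668, 1002 and 572 CPM after nitidine chloride. Its libraries scattered in both groups, highest in DMSO replicate 3 and treated replicate 2, and its log2 fold change of -0.03 ± 0.22 had the third largest SE among the members, after ADM and ANKRD37 (adjusted p = 0.922). LDHB was at 1449, 1392 and 1302 CPM and then at 1254, 1211 and 1159 CPM, without overlap, with -0.19 ± 0.06 (adjusted p = 0.0312). The LDHB call was lost in 6 of 15 alternative fits. Among them were those without DMSO replicate 1 (adjusted p = 0.119), DMSO replicate 2 (0.0966) or nitidine chloride replicate 3 (0.0837). Scaling by library size alone also lost it (0.234 at -0.09). LDHA made up 13.1 ± 2.80% of the FPKM of the pair in DMSO and 14.3 ± 3.56% after treatment, which overlap, and 21.0 ± 4.03% and 22.7 ± 5.04% per length of merged exons.

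PDK1 had the lowest fold change of all members. It encodes a pyruvate dehydrogenase kinase that HIF induces, and lies on chromosome 2 from 172555373 to 172608669. Its level was 69.1, 66.4 and 69.05 CPM in DMSO and 30.4, 29.6 and 29.6 CPM after nitidine chloride, so both groups were narrow and far apart. The fall was 2.28-fold, with a log2 fold change of -1.19 ± 0.07 and an edgeR adjusted p of 5.62e-06. PDK3 was at 33.7, 30.7 and 31.4 CPM and then at 20.1, 23.1 and 20.9 CPM and fell with -0.58 ± 0.09 (adjusted p = 0.00121). PDK2 was at 27.6, 30.5 and 29.1 CPM and 22.1, 33.0 and 20.9 CPM, which overlap, and did not pass (adjusted p = 0.370), although it passed without nitidine chloride replicate 2 (0.00797 at -0.44). PDK1 made up 22.5 ± 0.393% of the summed FPKM of the 3 kinases in DMSO and 15.3 ± 1.601% after treatment, without overlap. Per length of merged exons its share was 28.04 ± 0.499% and 18.6 ± 2.50%, and that of PDK2 32.5 ± 1.87% and 41.7 ± 5.03%, where the FPKM gave PDK2 16.7 ± 1.24% and 22.1 ± 3.47%.

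The outputs of the hypoxia response outside metabolism did not move as a block. VEGFA, the angiogenic growth factor (chromosome 6, 43770184 to 43786487), was at 81.9, 77.2 and 77.5 CPM in DMSO and at 123, 137 and 165 CPM after nitidine chloride. All treated libraries were above all controls, with replicate 3 highest, and the log2 fold change was 0.85 ± 0.11 (adjusted p = 3.77e-04). NDRG1, a stress-responsive gene induced by hypoxia (chromosome 8, 133237171 to 133302022), was at 91.4, 92.0 and 98.5 CPM and then at 51.6, 51.4 and 40.2 CPM. It fell 1.97-fold, with -0.98 ± 0.10 (adjusted p = 1.72e-04), and the treated libraries did not overlap the controls.

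The collagen prolyl 4-hydroxylases and the weakly expressed outputs showed smaller or unresolved differences. P4HA1, an alpha subunit of collagen prolyl 4-hydroxylase (chromosome 10, 73007217 to 73096974), was at 72.9, 71.7 and 80.5 CPM and then at 59.3, 59.2 and 43.4 CPM and fell with -0.48 ± 0.13 (adjusted p = 0.0152), a call that was lost without DMSO replicate 3 (0.0536). Its relative P4HA2 was at 31.3, 35.0 and 35.7 CPM and 31.5, 38.7 and 36.7 CPM and did not pass (adjusted p = 0.618). P4HA1 made up 86.9 ± 0.766% of the FPKM of the pair in DMSO and 81.7 ± 3.51% after treatment, with treated replicate 3 lowest. ADM, which encodes the vasodilator adrenomedullin, was at 9.86, 15.4 and 16.9 CPM and 22.1, 28.1 and 11.9 CPM, with overlap and a log2 fold change of 0.56 ± 0.32 (adjusted p = 0.181). Without nitidine chloride replicate 3 it passed (0.0229 at 0.83). ANKRD37, the member closest above the count minimum, had raw counts of 46, 28 and 43 in DMSO and of 27, 37 and 19 after treatment (adjusted p = 0.139). CA9, the membrane carbonic anhydrase widely used as a hypoxia marker, was the 1 member below it, with raw counts of 0, 0 and 2 in DMSO and of 4, 2 and 1 after treatment, too few for a fold change.

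Long members and short members received different calls, as long and short genes did in general, and the part of gene length in single members was not tested. Of 15 members spanning 50 kb or more, introns included, 12 fell and 0 rose in edgeR's quasi-likelihood test, where 61.1% of all 5320 tested genes of that span fell and 6.09% rose. Of 14 members under 20 kb, 5 rose and ENO1 alone fell, where 35.8% of all 6758 such genes rose and 8.80% fell. Between 20 and 50 kb, PFKFB2 rose, GPI fell and the other 4 members did not pass. Of all 3875 tested genes of that span, 30.8% rose and 12.2% fell. The median log2 fold change of the members was 0.16 under 20 kb, -0.12 between 20 and 50 kb and -0.47 from 50 kb, beside 0.22, 0.13 and -0.57 for all tested genes. Across the 35 members Spearman's rho between span and log2 fold change was -0.528, and -0.470 across all genes tested. These correlations are across genes, which are not independent replicates and share the same 6 libraries.

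Against tested genes of similar span (within a factor of 0.8 in either direction), the values of single members lay on both sides. PFKFB2, at 46.7 kb, had 0.56 where such genes had a median of 0.004, and 89.4% of them were lower than PFKFB2. VEGFA, ALDOC and VHL, at 16.3, 4.15 and 11.2 kb, had 0.85, 0.75 and 0.73, against medians of 0.28, 0.24 and 0.32, and GAPDH had 0.33 against 0.26. HIF1A, HK2, PFKP and NDRG1, between 52.7 and 71.4 kb, had -0.47, -0.55, -0.65 and -0.98, where their medians were -0.07, -0.12, -0.23 and -0.17. Of genes similar in span, 14.0%, 13.9%, 16.1% and 3.78% were lower than these members, in that order. EPAS1, EGLN1 and PDK3 had -0.61, -0.39 and -0.58, against medians of -0.44, -0.14 and -0.27. Here 34.9%, 26.3% and 22.9% of similar genes were lower. HK1, at 132 kb, lay above its median, with -0.41 against -0.82, and P4HA1 had -0.48 against -0.41. ENO1 had -0.29 against 0.27.

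For some members the span depends on the annotation. PDK1 spans 53.3 kb in the table, where similar genes had a median of -0.07 and 1.61% of them were lower than PDK1. RefSeq gives PDK1 169 kb, and tested genes of that span in the table had a median of -1.10, with 43.5% of them lower. EGLN3 spans 539 kb in the table and 26.8 kb in RefSeq, with medians of -3.12 and 0.19 for similar genes, and its own value was 0.18. LDHB (123 and 22.5 kb), P4HA2 (103 and 37.7 kb) and PGK1 (64.1 and 25.05 kb) are also shorter in RefSeq, and PFKFB3 is longer (90.6 and 182 kb). With RefSeq spans for all genes, 10 of 11 members of 50 kb or more fell and 0 rose, beside 64.0% and 5.49% of 4896 tested genes. Spearman's rho was -0.650 over the 35 members and -0.551 over the 14281 tested genes with a RefSeq span.

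**Figure D3:**
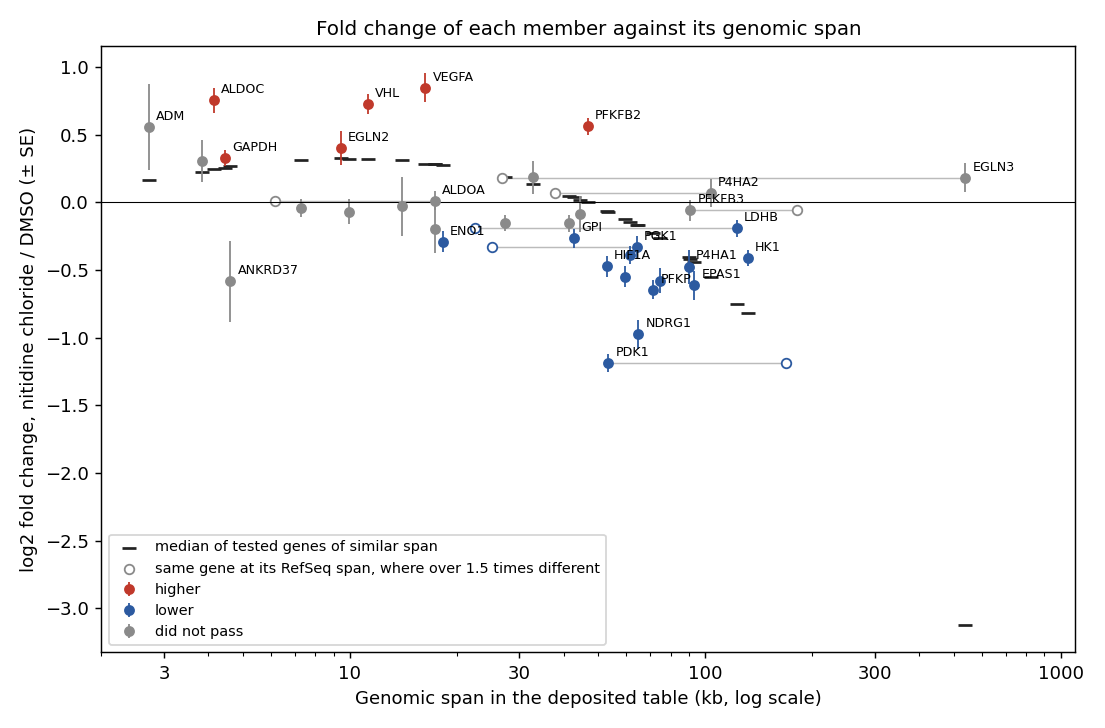
Log2 fold change (± SE) of the 35 tested members against their genomic span in the table (kb, log axis); dashes give the median of all tested genes of similar span, and open circles the RefSeq span where it differs over 1.5 times. No member of 50 kb or more rose, most of those under 20 kb that passed rose, and EGLN3 lies far above the dash at its table span.

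The core of the hypoxia response element was looked up in the promoters, to show where the members that moved in opposite directions carry it. RefSeq starts (GRCh38.p14) were matched by symbol for 32 members, all but PFKFB2, VEGFA, NDRG1 and VHL. The letters ACGTG, on either strand, occur in the 250 bases before at least 1 start of 20 of these 32 (62.5%), beside 28.9% of 10990 tested genes and 21.7% of all 27305 genes, counted over any start in the same way. Counted per start, the letters occur before 23 of the 58 member starts (39.7%), beside 18.5% of all 35116 starts. GCGTG was searched in the same way, and either core occurs in 27 members (84.4%), beside 65.3% of the tested genes. Where ACGTG lies within the palindrome CACGTG, the E-box bound by other factors, it is found on both strands. Several members are textbook HIF targets, which were chosen as such, and the shares were not tested. A match is a description of letters and not a bound site.

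The 25 bases around the ACGTG core nearest to a start are given for the members that passed the test, 5′ to 3′ on the gene's strand, ending at the start where it comes first, with the core in capitals. CACGT is the same core read on the other strand. The windows show the same core in genes that rose and in genes that fell. ALDOC, EGLN2 and GAPDH rose.
ALDOC, chr17:28576909-28576933 (- strand): ccggaggagtCACGTagctctgcga
EGLN2, chr19:40799133-40799157 (+ strand): gggcgcggtCACGTGcccaccgggc
GAPDH, chr12:6535174-6535198 (+ strand): ctgcggggtCACGTGtcgcagagga
EGLN1, GPI, HK2, P4HA1, PDK1, PDK3, PFKP and PGK1 fell.
EGLN1, chr1:231422288-231422310 (- strand): gccgtggtgtACGTGcagagcgc
GPI, chr19:34364820-34364844 (+ strand): actgcctgtaACGTGgaaggtgttc
HK2, chr2:74834069-74834093 (+ strand): tgggcgtgcgCACGTcactgatccg
P4HA1, chr10:73096938-73096962 (- strand): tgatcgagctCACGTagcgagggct
PDK1, chr2:172556072-172556089 (+ strand): cCACGTccctCACGTacc
PDK3, chrX:24465215-24465239 (+ strand): cgcgccgcgtACGTGcagcaaccga
PFKP, chr10:3069040-3069064 (+ strand): acgagcgcctACGTGatgcccggcc
PGK1, chrX:78104055-78104079 (+ strand): acggaagccgCACGTctcactagta
All 3 rising members with a listed start carry ACGTG, as do 8 of 13 falling members and 8 of 15 that did not pass. PDK1, the member with the lowest fold change, holds 2 copies in the window shown, the nearer one beginning 8 bases before a start. In ALDOC, EGLN2 and GAPDH, which rose, the core begins 28, 48 and 80 bases before a start. In EGLN2 and GAPDH the nearest copy is part of a CACGTG, which the capitals mark.

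Genes around the members in the same pathways, taken from lists set beside the members, were counted in the same fit. Of 13 tested genes of glycolysis outside the member list, 4 rose, 3 fell and 6 did not pass, with a median log2 fold change of -0.03. The shares called were 30.8% higher and 23.1% lower, beside 24.7% and 27% of all genes. SLC2A1, a widely expressed glucose transporter and a classical HIF target, was at 63.2 ± 5.58 CPM in DMSO and 62.1 ± 9.71 CPM after treatment (mean ± SD, n = 3) and did not pass (adjusted p = 0.877). The glucose transporter SLC2A3 rose with 0.60 ± 0.18 (adjusted p = 0.0246), from 3.33 ± 0.0394 CPM only. Both transporters were named after their values were seen. The monocarboxylate exporter SLC16A3 and the muscle enolase ENO3 rose with 0.96 ± 0.32 and 0.68 ± 0.14, from 1.51 ± 0.447 and 5.56 ± 0.389 CPM only. The germ cell lactate dehydrogenase LDHC fell with -1.02 ± 0.20, and PGM2, a phosphopentomutase, with -0.51 ± 0.06.

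Of 12 genes for the entry of pyruvate into mitochondria and its use by pyruvate dehydrogenase, 4 rose, 2 fell and 6 did not pass. The median was 0.14, and 33.3% were called higher and 16.7% lower, beside 24.7% and 27% of all genes. PDP1, the phosphatase that reverses the action of the PDK kinases, rose from 23.1 ± 1.74 to 37.9 ± 2.43 CPM (0.71 ± 0.09 on the log2 scale, adjusted p = 4.86e-04), beside the fall of PDK1 and PDK3. PDK4 rose with 0.56 ± 0.19, from only 1.35 ± 0.0407 CPM. PDHX, the E3-binding subunit of the complex, fell with -0.58 ± 0.13, and DLD, its E3 subunit, with -0.38 ± 0.07.

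The pentose phosphate pathway branches off glycolysis to make NADPH and ribose. Here 2 of 8 genes rose, 4 fell and 2 did not pass, with a median of -0.06. The shares called were 25% higher and 50% lower, beside 24.7% and 27% of all genes. PGD, phosphogluconate dehydrogenase, rose from 230.1 ± 1.34 to 365 ± 20.7 CPM (0.67 ± 0.06, adjusted p = 7.20e-05), and PGLS, the lactonase before it, rose with 0.42 ± 0.11. TKT, transketolase, fell from 325 ± 3.31 to 229 ± 17.4 CPM (-0.51 ± 0.07, adjusted p = 5.61e-04), and RPIA, the ribose 5-phosphate isomerase, fell with -0.67 ± 0.09. PGD and PGLS belong to the oxidative arm and TKT and RPIA to the other arm. They were named for the most extreme values in each direction, and the other genes of the list are not assigned here. A difference between the arms was not tested.

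Among 14 further regulators of HIF, 3 rose, 5 fell and 6 did not pass, with a median of -0.14. The shares called were 21.4% higher and 35.7% lower, beside 24.7% and 27% of all genes. SIAH2 and SIAH1, ubiquitin ligases that target the EGLN hydroxylases, rose with 0.87 ± 0.09 and 0.56 ± 0.09. ARNT2, a partner of the HIF alpha subunits, fell with -1.16 ± 0.11, and CREBBP, a HIF coactivator, with -0.91 ± 0.06. The median log2 fold change of tested genes close in span to ARNT2 (194 kb) was -1.33, and to CREBBP (156 kb) -1.002. For SIAH2 (22.4 kb) and SIAH1 (92.0 kb) these medians were 0.23 and -0.43. RefSeq gives SIAH1 26.7 kb, and the median at that span was 0.19.

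Of 31 tested hypoxia targets outside the member list, 7 rose, 12 fell and 12 did not pass, with a median of -0.19. STC2, the secreted glycoprotein stanniocalcin 2, rose from 151 ± 1.74 to 324 ± 14.5 CPM (1.10 ± 0.06, adjusted p = 4.43e-06), and the lysyl oxidase LOX rose with 0.71 ± 0.12. The histone demethylase KDM4C fell with -3.15 ± 0.14 and GBE1, the glycogen branching enzyme, with -2.24 ± 0.13. These 2 span 418 and 272 kb, and the medians at those spans were -2.77 and -1.88. Another counted gene overlaps SLC2A1, SLC16A3, ENO3, PDHX, DLD, PGLS, SIAH1 and LOX, so their counts are uncertain. The shares called were 38.7% lower and 22.6% higher for the hypoxia targets, beside 27% and 24.7% of all genes.

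**Figure D4:**
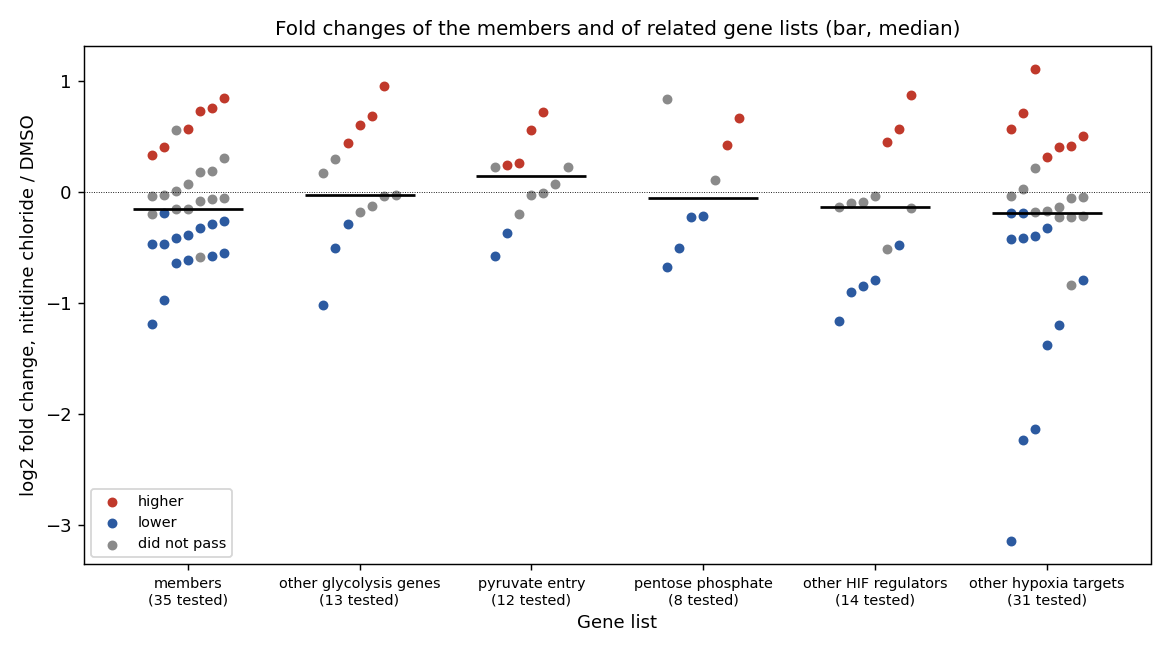
Log2 fold change of each tested gene (points, coloured by the call of edgeR's test) in the member list and in 5 lists of related genes, with the median of each list as a bar. Every list holds genes called in both directions, and the medians lie between -0.19 and 0.14.

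Levels between genes were compared per length. By FPKM the most abundant members in DMSO were ENO1 (519 ± 35.5), GAPDH (359 ± 13.9) and LDHB (305 ± 15.8), far ahead of PGK1 (116 ± 5.10), PGAM1 (112 ± 1.299) and TPI1 (110.4 ± 11.4), a group whose order is not resolved by the spread of TPI1. The length behind the deposited FPKM equalled the sum of all distinct annotated exons in GENCODE release 29 for 27 of the 36 members, so exons that overlap between transcripts were counted more than once. It was between 0.637 and 3.67 times the length of the merged exons. Per kilobase of merged exons, GAPDH came first with 866 CPM per kb, followed by ENO1 with 517, LDHB with 463 and TPI1 with 285. ALDOA, PGK1 and PGAM1 came next with 153, 144 and 138. The order of ENO1 and GAPDH, and that of TPI1, PGK1, PGAM1 and ALDOA, therefore depend on the length used. The pyruvate kinase gene PKM was at 40.5 ± 6.38 FPKM and LDHA at 45.8 ± 9.01 FPKM, while the HIF subunit HIF1A was at 16.3 ± 0.717 FPKM and EPAS1 at 3.84 ± 0.161 FPKM (mean ± SD, n = 3).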

How the data were processed

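The authors deposited raw read counts per gene and FPKM (counts scaled by gene length and library size), per the file headers. The submitters' processing notes list HISAT2 2.0.4 and StringTie 1.3.0 without roles. The read counter was not given in the sources used here, nor were strand setting, build and annotation. Positions are the table's, and those of 29 of 36 members equal GENCODE release 29 (GRCh38). Rows were matched by gene name (no member symbol repeated). Counts were tested with edgeR 4.0.16 (quasi-likelihood, TMM, R 4.3.3), nitidine chloride against DMSO, 3 libraries each, without covariates, for the 15953 genes that averaged 10 counts or more. The test was tested on simulated data. Far fewer genes changed there than were called here, so that run does not bear on the TMM scale. SE is the log2 fold change over the square root of F. The alternatives used DESeq2 1.42.0 and limma 3.58.1. Members and lists were chosen with earlier results of these data known. Named genes were all members, and from each other list up to 2 per direction with the most extreme fold changes that passed. SLC2A1 and SLC2A3 were added after their values were seen. Counts of 62 GAPDH and 4 TPI1 pseudogenes equalled 1.34% and 13.9% of their parents' counts.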

Additional observations from a re-analysis of the deposited data

How the results depend on the processing

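Over 15 alternatives tested at 0.05, 15 of the 20 members called kept their call in each, 5 (EGLN2, GPI, ENO1, LDHB and P4HA1) lost it in at least 1, and 0 changed direction. Leaving out single libraries gave 5 to 7 members higher, 12 to 15 lower and 7057 to 7828 genes changed. Of all genes, 3229 to 3673 were then higher and 3828 to 4188 lower. At an adjusted p under 0.01, 5 members were higher and 9 lower, beside 2616 and 3377 of all 15953 genes. Against a 1.5-fold change 1 was higher and 2 lower, beside 750 and 2083 of the 2833 genes changed. Without members overlapped by another counted gene, an alternative chosen after seeing the data, 2 of 21 were higher and 11 lower. Shares among all genes not overlapped were not computed. With a replicate block 5 members were higher, 14 lower and 7555 genes changed, 3492 of them higher and 4063 lower, and EGLN2 lost its call. Deviations of same-numbered libraries had correlations of 0.0014, -0.0550 and 0.0403, and those of differently numbered libraries ran from -0.0837 to 0.0852. Only DMSO replicate 3 correlated best with its own number. Whether same-numbered libraries share more than the number was not tested. Direction turned only for 6 members that did not pass. With scaling by library size alone PFKFB3 had 0.047, PFKFB4 0.017, PGAM1 0.061, ENO2 0.037 and LDHA 0.071. With limma on log2(FPKM + 1) they had 0.040, 0.0066, 0.058, 0.032 and 0.051, and with a pseudocount of 0.1 they had 0.049, 0.0064, 0.059, 0.039 and 0.052. When single libraries were left out, ALDOA ranged from -0.056 to 0.056, ENO2 from -0.12 to 0.0054, LDHA from -0.30 to 0.14, PFKFB4 from -0.22 to 0.029 and PGAM1 from -0.10 to 0.0098; the cause was not tested. On the log2(FPKM + 1) scale, where the pseudocount shrinks low genes, PDK1 had -0.77 and EPAS1 -0.39. Of 216 recomputed differences in isozyme shares, 196 moved by less than the spread between libraries. CA9 was too rarely counted at this depth to be tested.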

Other observations

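Within a group the libraries differed by a median SD of 4.87% of the mean CPM over the 35 tested members in DMSO and 8.23% after nitidine chloride. Over 15% were PKM, LDHA, ADM and ANKRD37 in DMSO, and PFKFB4, TPI1, LDHA, PDK2, ADM, ANKRD37 and P4HA1 after treatment. LDHA, TPI1, PKM, PFKFB4 and ADM shared their highest libraries, DMSO replicate 3 and nitidine chloride replicate 2. Members of smaller spread, among them HK2, PFKM, ALDOA, ENO2 and P4HA2, had the same highest libraries. Of the members over 15%, P4HA1 alone passed the test.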
